A study of Populus trichocarpa with 18 samples.

Results

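The PtrSND1 genes of Populus trichocarpa (black cottonwood) encode NAC-domain transcription factors, and 4 of them were followed here: PtrSND1-B1 (POPTR_0014s10060.1), its closest paralog PtrSND1-B2 (POPTR_0002s17950.1), and both PtrSND1-A genes (POPTR_0011s15640.1 and POPTR_0001s44820.1). They were chosen by gene identity, as 4 of the 40668 loci in the count table, each by its first gene model. The 3 genes other than PtrSND1-B2 were among the 23777 that passed a filter on low counts, and PtrSND1-B2 did not pass it. The names come from the identifiers given for this family, because the count table pairs no identifier with a name. Which of the A genes carries which number was not known here, so both are called by identifier.

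RNA-seq was done on protoplasts, plant cells freed of their walls, made from stem-differentiating xylem of greenhouse-grown plants. DNA was delivered with polyethylene glycol. One set of protoplasts received PtrSND1-B1 together with sGFP, a green fluorescent protein, and was collected 7, 12 and 25 h after transfection. The control set received sGFP alone and was collected at the same times. Each of the 6 groups had 3 libraries, 18 in all, and the control protoplasts keep their own chromosomal PtrSND1-B1. The sources used here do not give the promoter of the construct or the share of cells that took it up, and a library may hold transfected and untransfected cells. The comparisons ask how the paralogs stood after PtrSND1-B1 transfection and over culture time.

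NAC proteins bind DNA through a conserved domain at their N-terminal end. In Arabidopsis, SND1 and its near relatives switch on secondary wall formation in fibre cells, acting through MYB transcription factors on the genes of cellulose, xylan and lignin synthesis. The poplar PtrSND1 genes are the counterparts of this group and are expressed in developing wood, where an intron-retaining splice form of an A gene has been described as a repressor of the family.

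The libraries held 2690853 to 13970708 reads over the first models. Whether the 3 libraries of a group had separate plants or protoplast isolations behind them is not labelled. The p-values therefore refer to the spread among these libraries alone, which may be technical. The tissue could not be checked against xylem markers, since the identifiers used here are not paired with gene names. Levels are given as CPM, read counts relative to the scaled total of the library. They are not scaled by gene length, so they compare libraries for a gene and not genes with each other. In such bulk samples, fewer cells of a type and less RNA per cell cannot be told apart.

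POPTR_0014s10060.1, the gene that was transfected, was examined first. Its lowest, median and highest levels were 418, 1440.5 and 3372 CPM in the 9 PtrSND1-B1 libraries, against 2.09, 3.59 and 10.3 CPM in the 9 sGFP libraries. The constructs did not overlap, as for 0.0252% of all genes tested that were higher in PtrSND1-B1 libraries, so the gene stood where the labels put it in all 18 libraries. Plasmid and chromosomal copies of the gene contribute to the same count.

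At 7 h POPTR_0014s10060.1 stood at 3372, 1951 and 1440.5 CPM in PtrSND1-B1 replicates 1, 2 and 3, against 5.19, 10.3 and 3.59 CPM in sGFP replicates 1, 2 and 3. At 12 h these levels were 2171, 1006 and 779.8 CPM in PtrSND1-B1 libraries, against 4.96, 8.89 and 3.22 CPM in sGFP libraries. At 25 h they were 1582, 736 and 418 CPM in PtrSND1-B1 libraries, against 2.09, 3.10 and 2.09 CPM in sGFP libraries. Among the PtrSND1-B1 libraries replicate 1 was the highest and replicate 3 the lowest at each time, and among the sGFP libraries replicate 2 was the highest at each time. The log2 fold change was 8.47 (SE 0.72, edgeR adjusted p = 7.12e-05) at 7 h, 7.83 (SE 0.70, 0.000141) at 12 h and 8.61 (SE 0.74, 8.33e-05) at 25 h. Over the mean of the 3 times it was 8.30 (SE 0.42, edgeR adjusted p = 2.67e-08). Of the 3 family members tested, POPTR_0014s10060.1 was the 1 called at 7 h, where 0.0589% of all genes were called, at 12 h (0.00841%), at 25 h (0.00421%) and over the mean of the times (0.16%). Fitted to the libraries of a single time, the edgeR adjusted p was 0.115 at 12 h and 0.0514 at 25 h, with log2 fold changes of 7.85 and 8.60.

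Within each construct POPTR_0014s10060.1 had a lower mean level at 25 h than at 7 h, and whether the difference passed depended on the treatment of replicate numbers. The sGFP libraries received no PtrSND1-B1, but whether all their reads of the gene come from the plant's own copy was not tested. In PtrSND1-B1 libraries the log2 change, 25 h over 7 h, was -1.30 (SE 0.52, edgeR adjusted p = 0.097), and in sGFP libraries it was -1.44 (SE 0.65, adjusted p = 0.14). Blocked by replicate number, both passed: -1.39 (SE 0.34, edgeR adjusted p = 0.00578) in PtrSND1-B1 libraries, where 30.8% of all genes passed in that fit, and -1.51 (SE 0.49, 0.0306) in sGFP libraries, where 31.9% did. That block takes a number to link libraries of different times, which was not checked. The value in PtrSND1-B1 libraries also varied with single libraries. It was larger in size and called without 25 h replicate 1, at -1.97 (edgeR adjusted p = 0.0344), and smaller without 7 h replicate 1, at -0.89 (edgeR adjusted p = 0.318). In the sGFP libraries the 25 h levels all lay under the 7 h levels, as for 17.2% of all genes, while in the PtrSND1-B1 libraries 25 h replicate 1 lay above 7 h replicate 3. In sGFP libraries the log2 change was -0.13 for 12 h against 7 h (SE 0.59, 95% interval -1.39 to 1.12), of unsettled sign, with 0.42 without 7 h replicate 2 and 0.13 without 12 h replicate 3. For 25 h against 12 h it was -1.31 (SE 0.64, edgeR adjusted p = 0.407).

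**Figure D1:**
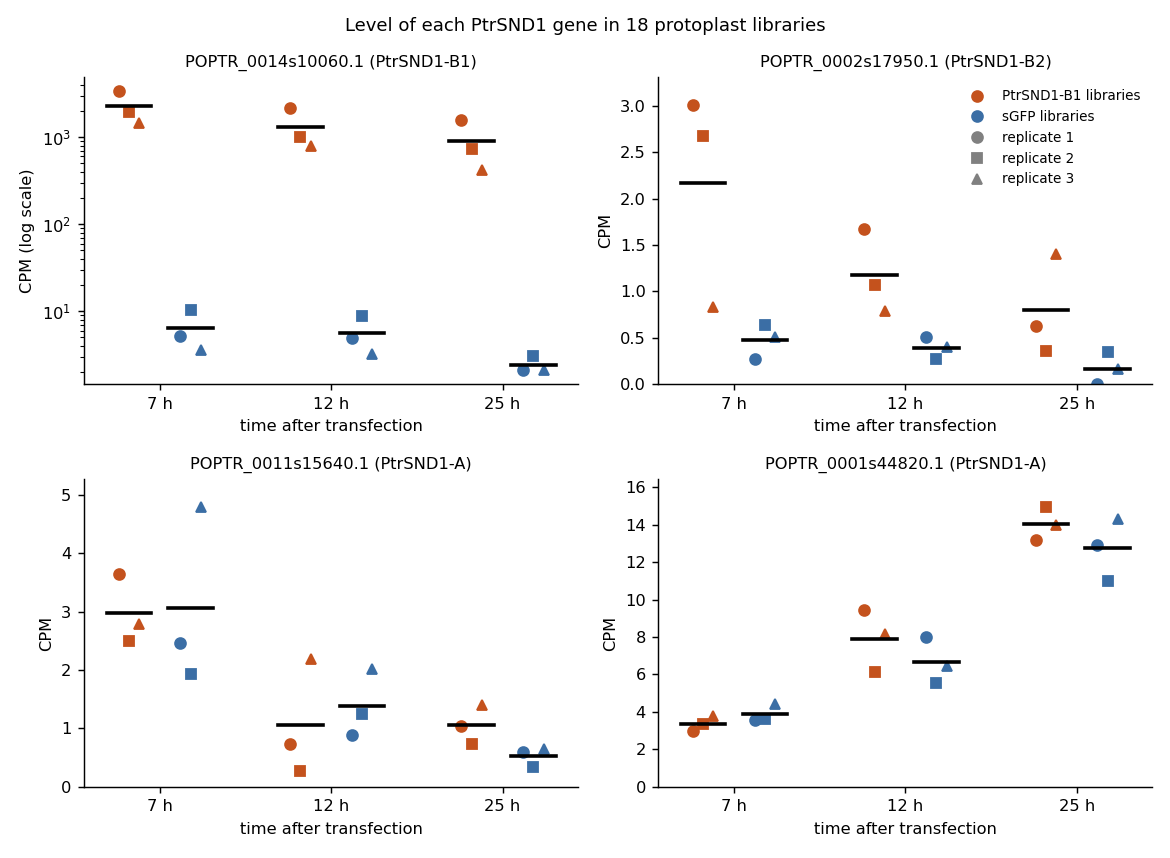
Level of each of the 4 PtrSND1 genes in CPM (y axis, logarithmic for POPTR_0014s10060.1) against time after transfection, with a point per library, shapes for replicate numbers and a bar at each group's mean. POPTR_0014s10060.1 and POPTR_0002s17950.1 stood higher in PtrSND1-B1 than in sGFP libraries at each time, and POPTR_0001s44820.1 stood at 13.2 to 14.9 CPM in PtrSND1-B1 and 11.01 to 14.3 CPM in sGFP libraries at 25 h. The levels of POPTR_0002s17950.1 rest on at most 16 reads per library, and its difference was called at no single time.

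PtrSND1-B2 (POPTR_0002s17950.1), the closest paralog of the transfected gene, was a rare transcript that was counted more often in PtrSND1-B1 than in sGFP libraries. At 7 h it had 14, 16 and 6 reads in PtrSND1-B1 replicates 1, 2 and 3, against 1, 3 and 3 reads in sGFP libraries. At 12 h it had 9, 4 and 4 reads in PtrSND1-B1 libraries, against 4, 2 and 2 reads in sGFP libraries. At 25 h it had 3, 1 and 4 reads in PtrSND1-B1 libraries, against 0, 1 and 1 reads in sGFP libraries. Each value thus rests on at most 16 reads, and the library with 0 reads allows up to 0.224 CPM, the level of 3 reads there.

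Scaled to library size, POPTR_0002s17950.1 stood at 3.01, 2.67 and 0.835 CPM in PtrSND1-B1 replicates 1, 2 and 3 at 7 h, against 0.273, 0.643 and 0.513 CPM in sGFP libraries. The levels were 1.67, 1.07 and 0.794 CPM in PtrSND1-B1 libraries at 12 h, against 0.509, 0.278 and 0.402 CPM in sGFP libraries. They were 0.628, 0.364 and 1.40 CPM in PtrSND1-B1 libraries at 25 h, against 0, 0.344 and 0.161 CPM in sGFP libraries. The constructs did not overlap at any of the 3 times, though the gap at 25 h was that between 0.364 and 0.344 CPM, a single read in each of those libraries. Groups without overlap and higher in PtrSND1-B1 libraries made up 3.85% of the filtered genes at 7 h, 2.13% at 12 h and 1.99% at 25 h. Pairing libraries by time and replicate number, POPTR_0002s17950.1 was higher in 9 of 9 pairs, by a median of 1.22 on the log2 scale, as was so for 507 of the 23777 filtered genes (2.13%).

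The tests of POPTR_0002s17950.1 had to be made outside the filtered fit. Fitted without the filter, its log2 fold change was 2.08 (SE 0.69) at 7 h, 1.52 (SE 0.72) at 12 h and 2.69 (SE 0.97) at 25 h, and none of these passed (edgeR adjusted p = 1 at each time). The value at 25 h was 1.69 without sGFP replicate 1, the library with 0 reads, and 3.34 without sGFP replicate 2. Over the mean of the times it was 2.09 (SE 0.47, 95% interval 1.12 to 3.07, edgeR adjusted p = 0.128), where 0.126% of 37199 genes were called. It passed when blocked by replicate number, at 2.10 (edgeR adjusted p = 0.0488, 0.616% of genes called), and with each of the 9 pairs as a term, at 2.08 (adjusted p = 0.00132, 7.8% called). The interval of that last fit (1.08 to 3.07) is as narrow as for a spread known without error, so its p may be too small. DESeq2 gave 2.22 (adjusted p = 0.0389, 0.33% called). An exact permutation test of the constructs inside times, two-sided and chosen after these values were seen, gave a mean difference of 1.03 CPM with p = 0.00025, the smallest that 8000 arrangements allow. Groups that do not overlap at any time fix this p at its minimum, so the test restates that observation and adds none of its own. The same holds of exchanges inside the 9 pairs (exact permutation p = 0.00391, the smallest of 512 arrangements), and no single time can reach under 0.1.

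Pooled over libraries, reads of POPTR_0002s17950.1 per scaled library size were 4.09 times as frequent in PtrSND1-B1 as in sGFP libraries at 7 h (95% exact binomial interval 1.79 to 10.9). The ratio was 3.00 (1.23 to 8.04) at 12 h and 8.67 (1.73 to 83.8) at 25 h, the last against 2 reads. These intervals overlap widely, and the difference of the effect between 25 and 7 h was 0.61 on the log2 scale (SE 1.00, 95% interval -1.48 to 2.70), so a difference between times was not detectable at this depth. The reads carry no molecular identifiers and are not independent molecules, so the intervals cover counting error only.

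Reads of POPTR_0002s17950.1 were set against those of the transfected gene. The PtrSND1-B1 libraries held 1195 to 15709 reads of POPTR_0014s10060.1, against 9 to 64 reads in the sGFP libraries. POPTR_0002s17950.1 had 0.0397 to 0.335 reads per 100 reads of POPTR_0014s10060.1 in single PtrSND1-B1 libraries, and pooled by time this percentage was 0.0954 at 7 h, 0.0876 at 12 h and 0.0743 at 25 h. At 7 h the PtrSND1-B1 libraries with 15709, 11690 and 10355 reads of POPTR_0014s10060.1 held 14, 16 and 6 reads of POPTR_0002s17950.1. At 12 h those with 11720, 3764 and 3929 held 9, 4 and 4, and at 25 h those with 7555, 2024 and 1195 held 3, 1 and 4. Counts this low do not settle an order of libraries within a group. In sGFP libraries there were 0 to 14.3 reads of POPTR_0002s17950.1 per 100 of POPTR_0014s10060.1. The excess of POPTR_0002s17950.1 in PtrSND1-B1 over sGFP libraries, as a percentage of the excess of POPTR_0014s10060.1 in CPM, was 0.0722 at 7 h, 0.0587 at 12 h and 0.0658 at 25 h. For POPTR_0011s15640.1 the same percentage was -0.0156, -0.0124 and 0.0465, and for POPTR_0001s44820.1 it was -0.0252, 0.101 and 0.0773. At 12 and 25 h the percentage of POPTR_0001s44820.1 was thus above that of POPTR_0002s17950.1. The signs for the A genes are not settled, since the intervals of their pooled read ratios reach to both sides of no difference at each time. The sources used here do not say how reads that map to more than 1 place were counted, and the part of shared reads in the POPTR_0002s17950.1 result was not tested.

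**Figure D2:**
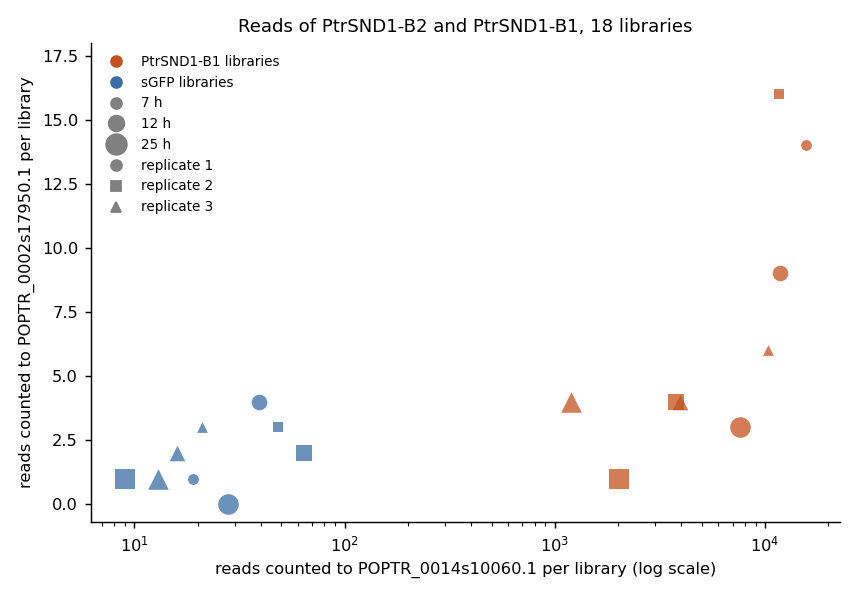
Reads counted to POPTR_0002s17950.1 (y axis) against reads counted to POPTR_0014s10060.1 (x axis, logarithmic), with a point per library, colour for construct, size for time and shape for replicate number. The 9 sGFP libraries hold 0 to 4 reads of POPTR_0002s17950.1 and the 9 PtrSND1-B1 libraries 1 to 16, with the highest counts at 7 h.

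With culture time POPTR_0002s17950.1 had lower means at 25 h than at 7 h in both constructs. The log2 change was -1.42 (SE 0.69, edgeR adjusted p = 0.229) in PtrSND1-B1 libraries and -2.03 (SE 0.99, adjusted p = 0.223) in sGFP libraries, and neither passed. With a library left out they were -1.97 to -1.11 in PtrSND1-B1 and -2.69 to -1.03 in sGFP libraries, the last without 25 h replicate 1. The 25 h and 7 h groups overlapped within each construct.

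POPTR_0011s15640.1, an A gene, did not differ detectably between the constructs. At 7 h it stood at 3.65, 2.50 and 2.78 CPM in PtrSND1-B1 replicates 1, 2 and 3, against 2.46, 1.93 and 4.78 CPM in sGFP libraries. At 12 h it stood at 0.741, 0.267 and 2.18 CPM in PtrSND1-B1 libraries, against 0.891, 1.25 and 2.01 CPM in sGFP libraries. At 25 h it stood at 1.05, 0.728 and 1.40 CPM in PtrSND1-B1 libraries, against 0.598, 0.344 and 0.643 CPM in sGFP libraries. The constructs overlapped at 7 and 12 h and did not at 25 h, where PtrSND1-B1 libraries were higher, as for 1.99% of all genes, with 1 to 8 reads behind each value. The log2 fold change was -0.07 (SE 0.48) at 7 h, -0.28 (SE 0.57) at 12 h and 0.88 (SE 0.66, 95% interval -0.52 to 2.28) at 25 h, each with an edgeR adjusted p of 1.00. Over the mean of the times it was 0.18 (SE 0.32, 95% interval -0.51 to 0.86), or 0.701 to 1.82 as a fold.

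The level of POPTR_0011s15640.1 fell with culture time in the sGFP libraries. At 25 h it was 0.344 to 0.643 CPM, against 1.93 to 4.78 CPM at 7 h, giving -2.41 in log2 units (SE 0.56, 95% interval -3.61 to -1.22, edgeR adjusted p = 0.00833). Without 7 h replicate 3, the highest of the sGFP libraries, it was -1.90 (edgeR adjusted p = 0.0523). In the PtrSND1-B1 libraries the 25 h level was 0.728 to 1.40 CPM, against 2.50 to 3.65 CPM at 7 h, giving -1.46 in log2 units (SE 0.57, edgeR adjusted p = 0.0902) and in the fit blocked by replicate number one of -1.48 that passed (adjusted p = 0.0228), as did 30.8% of all genes. The 25 h libraries lay under the 7 h libraries without overlap in both constructs, as for 18% of all genes in PtrSND1-B1 and 17.2% in sGFP libraries. The change over time in PtrSND1-B1 minus that in sGFP libraries was 0.95 (SE 0.81, 95% interval -0.77 to 2.67, edgeR adjusted p = 1.00), so the constructs were not shown to differ in it.

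Neither step of POPTR_0011s15640.1 passed in sGFP libraries: -1.20 (SE 0.51, edgeR adjusted p = 0.355) for 12 h against 7 h and -1.22 (SE 0.59, adjusted p = 0.402) for 25 h against 12 h. In PtrSND1-B1 libraries it was -1.41 (SE 0.53, edgeR adjusted p = 0.272) for 12 h against 7 h and -0.06 (SE 0.63) for 25 h against 12 h. Blocked by replicate number the first of these was -1.50 (edgeR adjusted p = 0.0445), where 7.18% of all genes passed. The 12 h PtrSND1-B1 libraries spread widely, and their replicate 2 held a single read of the gene. With a library left out, the step of 12 h against 7 h was -2.42 (without 12 h replicate 3) to -1.01 (without 12 h replicate 2) in PtrSND1-B1 libraries, and -1.52 (without 12 h replicate 3) to -0.68 (without 7 h replicate 3) in sGFP libraries.

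POPTR_0001s44820.1, the other A gene, rose with culture time in both constructs, and no difference between the constructs passed. At 7 h it stood at 3.01, 3.34 and 3.76 CPM in PtrSND1-B1 replicates 1, 2 and 3, against 3.55, 3.64 and 4.44 CPM in sGFP libraries. At 12 h it stood at 9.45, 6.15 and 8.14 CPM in PtrSND1-B1 libraries, against 8.02, 5.56 and 6.43 CPM in sGFP libraries. At 25 h it stood at 13.2, 14.9 and 13.99 CPM in PtrSND1-B1 libraries, against 12.9, 11.01 and 14.3 CPM in sGFP libraries. In both constructs the groups ordered 7, 12 and 25 h without overlap between neighbouring times, each above the one before. This order held for 1.93% of all genes in PtrSND1-B1 libraries, 1.96% in sGFP libraries and 0.95% in both. The constructs overlapped at each time.

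At 25 h against 7 h the log2 change of POPTR_0001s44820.1 was 2.04 in PtrSND1-B1 libraries (SE 0.22, 95% interval 1.57 to 2.52, edgeR adjusted p = 4.88e-05) and 1.71 in sGFP libraries (SE 0.22, 1.24 to 2.18, adjusted p = 0.000147). As folds these are 4.12 and 3.27. Of the 3 members tested this was the 1 called in PtrSND1-B1 libraries, where 16.8% of all genes were called, while in sGFP libraries both A genes were called, where 17.9% of all genes were. By p-value POPTR_0001s44820.1 ranked 53 of 23777 genes in PtrSND1-B1 libraries and 153 in sGFP libraries. It was the 1 member of 4 whose 25 h libraries lay above its 7 h libraries, as for 16.8% of all genes in PtrSND1-B1 and 16.2% in sGFP libraries. The rise kept its call in each of 18 omissions of a library, at 1.97 to 2.13 in PtrSND1-B1 and 1.62 to 1.83 in sGFP libraries.

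The rise of POPTR_0001s44820.1 was spread over both intervals. In PtrSND1-B1 libraries the log2 change was 1.23 (SE 0.22, edgeR adjusted p = 0.0447) for 12 h against 7 h, where 0.206% of all genes were called, and 0.81 (SE 0.21, adjusted p = 0.0957) for 25 h against 12 h, where 0.715% were. The call for 12 h against 7 h lay close to the threshold and was lost in 16 of 18 omissions of a library, with adjusted p-values up to 0.202, and held only without 25 h replicate 3 of either construct. In sGFP libraries the change was 0.77 (SE 0.22, edgeR adjusted p = 0.17) for 12 h against 7 h, where 0.231% of all genes were called. For 25 h against 12 h it was 0.94 (SE 0.21, edgeR adjusted p = 0.0512), where 0.686% were called, and it passed without PtrSND1-B1 12 h replicate 1 (adjusted p = 0.0497) and by DESeq2 (adjusted p = 0.0116), which called 2.57% of genes.

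Blocked by replicate number, 3 further steps of POPTR_0001s44820.1 passed by edgeR. These were 25 h against 12 h in PtrSND1-B1 libraries (0.82, adjusted p = 0.0161, 8.59% of all genes called), 12 h against 7 h in sGFP libraries (0.77, adjusted p = 0.0412, 6.45%) and 25 h against 12 h in sGFP libraries (0.93, adjusted p = 0.00546, 9.34%). The step of 12 h against 7 h in PtrSND1-B1 libraries kept its call in that fit (1.22, edgeR adjusted p = 0.00378, 7.18%).

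Between constructs POPTR_0001s44820.1 had the narrowest interval of the family. The log2 fold change was -0.20 (SE 0.23) at 7 h, 0.25 (SE 0.21) at 12 h and 0.13 (SE 0.21) at 25 h, and over the mean of the times it was 0.06 (SE 0.13, 95% interval -0.21 to 0.33, edgeR adjusted p = 1.00). As a fold this interval ran 0.864 to 1.25. Its change over time in PtrSND1-B1 minus that in sGFP libraries was 0.33 (SE 0.31, 95% interval -0.33 to 1.00, edgeR adjusted p = 1.00). The fit estimated a coefficient of variation between libraries beyond counting error, moderated across genes. It was 15.1% for POPTR_0001s44820.1, 32.3% for POPTR_0011s15640.1 and 44.6% for the transfected gene, against 29.0% in common over genes. The levels of genes with few reads, as of POPTR_0011s15640.1, vary more than this between libraries, since counting error adds to it. The table lists 2 models of this locus, which held the same count in 18 of 18 libraries, so splice forms of the gene cannot be told apart here.

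**Figure D3:**
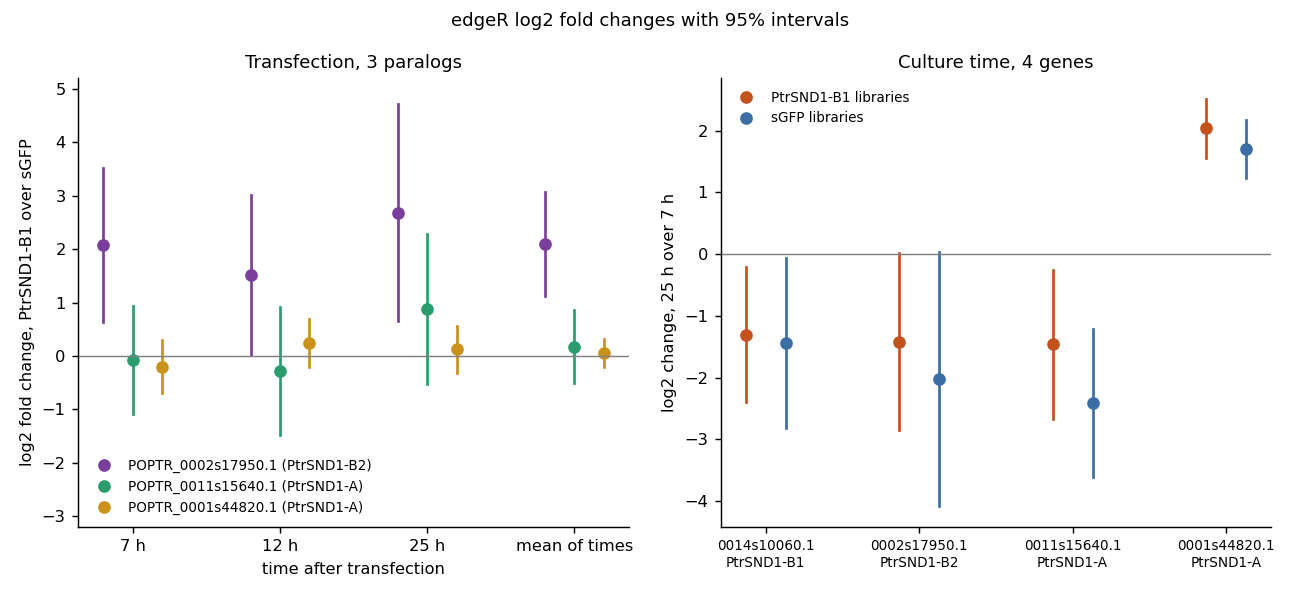
edgeR log2 fold changes with 95% intervals: PtrSND1-B1 over sGFP for the 3 paralogs at each time and over the mean of the times (left), and 25 h over 7 h within each construct for the 4 genes (right), with POPTR_0002s17950.1 fitted without the low-count filter. Over time POPTR_0001s44820.1 lies above 0 (2.04 in PtrSND1-B1 and 1.71 in sGFP libraries), and the other 3 genes lie under 0, from -1.30 to -2.41. Of the values under 0 only that of POPTR_0011s15640.1 in sGFP libraries was called, and both intervals of POPTR_0002s17950.1 reach past 0.

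The A genes therefore moved in opposite directions over culture time in sGFP libraries, where both were called. The log2 ratio of their reads, POPTR_0001s44820.1 over POPTR_0011s15640.1, was 0.19 ± 0.41 at 7 h, 3.36 ± 1.34 at 12 h and 3.78 ± 0.53 at 25 h in PtrSND1-B1 libraries (SD, n = 3). In sGFP libraries it was 0.45 ± 0.52 at 7 h, 2.33 ± 0.76 at 12 h and 4.64 ± 0.32 at 25 h (SD, n = 3). At 7 h the ratio lay between -0.28 and 0.92 over the 6 libraries, and at 25 h between 3.32 and 5, with no overlap. The constructs overlapped at 7 and 12 h and did not at 25 h, with 3.32 to 4.36 in PtrSND1-B1 and 4.43 to 5 in sGFP libraries. The 25 h ratios rest on 1 to 8 reads of POPTR_0011s15640.1, and the gap lies between 41 over 2 reads and 173 over 8 reads. No share over all genes was computed for such a ratio, so the gap is not read as a construct difference. The ratio was chosen after the values were seen and is given as a description with no test. It needs no scaling between libraries, and since gene lengths were not used, its height at a given time does not compare the transcript levels of the genes.

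**Figure D4:**
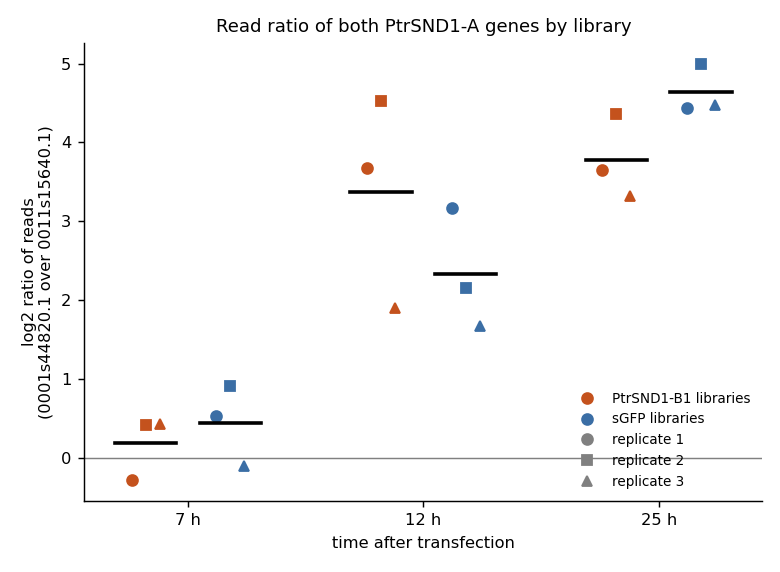
The log2 ratio of reads of POPTR_0001s44820.1 over POPTR_0011s15640.1 (y axis) against time after transfection (x axis), with a point per library, shapes for replicate numbers and a bar at each group's mean. The 7 h libraries lie between -0.28 and 0.92 and the 25 h libraries between 3.32 and 5 in both constructs.

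The effect of PtrSND1-B1 transfection was not shown to change with time for any of the 4 genes. For the 3 members in the filtered fit, the difference of the effect between 25 and 7 h had log2 values of 0.14 for POPTR_0014s10060.1 (95% interval -1.51 to 1.78), 0.95 for POPTR_0011s15640.1 and 0.33 for POPTR_0001s44820.1. None was called. Without a block edgeR called 0% of all genes, while 227 genes had an unadjusted p under 0.05 and DESeq2 called 3. Blocked by replicate number edgeR called 0.00421% of genes, and with a term per pair 0.0673%, again none of these members. For POPTR_0014s10060.1 and POPTR_0011s15640.1 the intervals reached past a 2-fold difference.

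The genes whose levels ran most like each member were then listed, as the 3 with the highest Pearson correlation of log2 CPM over the 18 libraries among 23774 genes. They are descriptions, since libraries share construct, time and replicate number. For POPTR_0014s10060.1 they were POPTR_0007s14780.1 (r = 0.924), POPTR_0009s01800.1 (r = 0.910) and POPTR_1923s00200.1 (r = 0.900). For POPTR_0002s17950.1 they were POPTR_0001s01050.1 (r = 0.880), POPTR_1923s00200.1 (r = 0.853) and POPTR_0002s07880.1 (r = 0.837), so 1 gene stood in both lists of 3. POPTR_0007s14780.1 averaged 40.1 CPM over the PtrSND1-B1 libraries and 1.33 CPM over the sGFP libraries, and POPTR_1923s00200.1 averaged 3.18 CPM over PtrSND1-B1 and 0.104 CPM over sGFP libraries. The latter had 0 to 6 reads per sGFP library, the 6 in 12 h replicate 1. POPTR_0009s01800.1 and POPTR_0001s01050.1 had 0 or 1 read in each sGFP library, so they passed the filter through their PtrSND1-B1 libraries. These genes were picked for following levels that differ by construct, so their own difference follows from the choice.

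For POPTR_0011s15640.1 the most alike were POPTR_0017s05720.1 (r = 0.918), POPTR_0004s10520.1 (r = 0.912) and POPTR_0013s15090.1 (r = 0.910), each lower at 25 h than at 7 h in both constructs. For POPTR_0001s44820.1 they were POPTR_0006s04770.1 (r = 0.969), POPTR_0012s03780.1 (r = 0.966) and POPTR_0012s13510.1 (r = 0.966), each higher at 25 h than at 7 h in both constructs. Both sets were picked for following a member that changes over time, so their directions follow from the choice. The file gives no name or function for any of these genes. By Spearman's rank correlation, 1, 2, 2 and 0 of the 3 genes also stood in the first 3 for POPTR_0014s10060.1, POPTR_0002s17950.1, POPTR_0011s15640.1 and POPTR_0001s44820.1, so the choice among close candidates depended on the measure.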

How the data were processed

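RNA-seq counts of 18 libraries were used. The table deposited by the authors holds raw counts, as whole reads for each gene model in each library. The submitters' processing notes name TopHat and edgeR, with no role or version. The sources used here do not give the genome build, annotation, counting tool, strandedness or handling of multiply mapped reads, so counts of close paralogs, and of overlapping or antisense genes, are uncertain. The table held 45033 models of 40668 loci, of which the first model was used, and 0 columns of other samples.

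Groups and replicate numbers came from the library titles. Counts were fitted with edgeR 4.0.16 in R 4.3.3: filterByExpr with the 6 groups (23777 genes), TMM scaling (factors 0.797 to 1.09), a mean per group and quasi-likelihood F tests with 12 residual degrees of freedom. A call is an adjusted p under 0.05 (Benjamini-Hochberg over all genes tested). All adjusted p-values come from edgeR unless DESeq2 (1.42.0) is named. SE is the standard error, taken as the absolute log2 value over the square root of F. PtrSND1-B2 failed the filter and was fitted without it (37199 genes), a choice made after the counts were seen. CPM used TMM-scaled sizes of the filtered libraries, and log2 CPM in correlations and pairs a prior count of 2. Intervals are 95%.

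The labels do not say that a replicate number marks a shared batch. Within each time, deviations of same-numbered libraries from their group means correlated at 0.345 to 0.752 in all 9 pairs (median 0.658), over the 0.1 set for pairing. The numbers were therefore taken as pairing the constructs within a time, from the data. Whether a number also links libraries of different times was not checked. The block by number takes it to do so, and the blocked calls over time rest on that. The main values still come from the fit without a block, which ignores this pairing, and blocked values stand beside them where a call changed. With a term per pair, the mean effect of transfection was 0.15 (SE 0.28) for POPTR_0011s15640.1 and 0.05 (SE 0.11) for POPTR_0001s44820.1, neither called. Blocked fits had the number as a term (10 residual degrees of freedom) or a term per pair of a time and number (6).

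The members, tests and rule for named genes (the 4 members, and for each the 3 genes most correlated with it) were chosen with earlier results of these data known. Planned lists of wall NAC and MYB genes, xylem markers and a promoter motif were not used, because the RefSeq gene table matched 0 identifiers. Alternatives were other scalings, DESeq2, no filter, all models, only the groups compared, both blocks and each library left out.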

Additional observations from a re-analysis of the deposited data

Results flagged for a closer look

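The PtrSND1-B1 minus sGFP difference of POPTR_0001s44820.1 had opposite signs at 2 times. At 7 h it was below 0 in 3 of 3 pairs of the same replicate number, with a mean of -0.18 in log2 CPM, and at 12 h it was above 0 in 3 of 3 pairs, with a mean of 0.23. The difference between these times was tested in the edgeR fit over all genes, as the change of the effect between 7 and 12 h (12 h minus 7 h). It was 0.46 (SE 0.32, 95% interval -0.22 to 1.13, adjusted p = 1.00), so the effects were not shown to differ.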

How the results depend on the processing

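In the fit with a replicate block, the 25 h against 7 h change of POPTR_0014s10060.1 passed in PtrSND1-B1 (-1.39) and sGFP libraries (-1.51), as did that of POPTR_0011s15640.1 in PtrSND1-B1 libraries (-1.48). The mean effect on POPTR_0002s17950.1 passed with the block (2.10), by DESeq2 (2.22) and with a term per pair (2.08), whose p may be too small. No library was left out of these fits. By edgeR without a block, the mean effect did not pass with all libraries or with any single one left out (edgeR adjusted p = 0.0606 to 0.427). The block turned the sign of uncalled values of POPTR_0011s15640.1, its effect at 7 h (0.0023) and its 25 h against 12 h change in PtrSND1-B1 libraries (0.019), and changed no call of the remaining 25 h against 7 h or construct comparisons. With only the groups compared, the effect on POPTR_0014s10060.1 no longer passed at 12 h (7.85) or 25 h (8.60), where fewer libraries enter the fit. In the exact test of POPTR_0002s17950.1, the 7, 12 and 25 h libraries alone (1.69, 0.781 and 0.629 CPM) cannot pass.

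With 1 library left out, the log2 values ranged as follows. The 25 h against 7 h change of POPTR_0014s10060.1 in PtrSND1-B1 libraries was -1.97 to -0.89, its 25 h against 12 h change there -1.19 to 0.030, its 12 h against 7 h change in sGFP libraries -0.60 to 0.42, and its difference of effects between 25 and 7 h -0.53 to 0.55. That last difference was -0.38 to 1.27 for POPTR_0002s17950.1. For POPTR_0011s15640.1 the effect was -0.32 to 0.44 at 7 h, -1.29 to 0.11 at 12 h and -0.16 to 0.34 over the mean of the times, and its difference of effects between 12 and 7 h -1.22 to 0.18. Its 25 h against 12 h change in PtrSND1-B1 libraries was -0.45 to 0.95, and its 25 h against 7 h change in sGFP libraries -2.66 to -1.90. The exact-test difference of POPTR_0002s17950.1 was 0.895 to 1.26 CPM. The call of POPTR_0001s44820.1 for 12 h against 7 h in PtrSND1-B1 libraries was also lost with library size alone (1.16), no filter (1.24) and only the groups compared (1.25). Scaling by library size alone moved the median of all genes by -0.17 for 25 h against 7 h in either construct and by -0.11 for 25 h against 12 h in PtrSND1-B1 libraries, RLE size factors moved it by -0.0077 to 0.0068, and neither turned a sign for these 4 genes. The causes of the other changed calls were not tested. Depth limits POPTR_0002s17950.1 and POPTR_0011s15640.1, with 0 to 16 and 1 to 28 reads per library.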
